A study of Mus musculus with 120 samples.

Results

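Windows that lay in noncoding genes and away from coding genes made up 624 of the 8381 windows on chromosomes 1 to 19 that were called as differently methylated between App-NLGF and wild-type mice. A window is a 1 kb stretch of the mm10 genome, and it was taken when it overlapped the body of at least 1 noncoding gene of the RefSeq table, overlapped no coding gene body and lay more than 1 kb from the start and end of every coding gene. The rule uses positions only. The whole list holds 8961 windows, of which 580 lie outside these chromosomes. Noncoding genes here are long noncoding RNA genes (lncRNA, long transcripts that encode no protein), pseudogenes (disabled copies of other genes) and small RNA genes, and antigen receptor segments and whole receptor loci were not counted among them, except segments annotated as pseudogenes (1 window, in Ighv5-7).

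The methylation of DNA was read by whole-genome bisulfite sequencing, in which unmethylated cytosines read as thymine. The labels give 120 libraries in 12 groups of 10, and each group holds 5 females and 5 males. The groups combine a tissue (Hippocampus or Blood), a genotype (Wild-type or APP-nlgf) and an age (week 3, 8 or 24). APP-nlgf mice, written App-NLGF here, have their own App gene, on chromosome 16, altered to a humanised amyloid-beta sequence with the Arctic, Iberian and Swedish mutations, so the precursor protein is not overexpressed and no transgene promoter or Cre is involved. Their wild-type controls carry none of these changes. The comparison of genotypes was made separately for every tissue and age, with sex as covariate, and gives 6 lists of windows. Each window has a methylation difference in percentage points, read as App-NLGF minus wild type from the name of the comparison, and an adjusted p-value. Values per library, methylation levels and coverage were not analysed here, so the depth and the spread between animals behind each difference are unknown. A window absent from a list may have missed a threshold or been thinly covered.

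Most mammalian CG dinucleotides outside promoters are methylated, whereas promoters dense in CG are mostly unmethylated. LncRNA genes have promoters and exons as coding genes do, and some serve as hosts from whose transcripts small RNAs are cut. MicroRNAs are short RNAs that pair with messenger RNAs through the seed, bases 2 to 8 of the mature strand. Small nucleolar RNAs guide the modification of ribosomal RNA, small nuclear RNAs belong to the splicing machinery, and transfer RNAs carry amino acids to the ribosome.

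The microRNA genes inside these windows are shown first, because all 3 of their windows come from blood at week 8 and because 2 of them share a seed. The 3 were lower in App-NLGF mice, as were 89.1% of all windows of that list. The window chr11:75173001-75174000 holds Mir212 and Mir132, neighbouring genes on the plus strand that are known for induction by neuronal activity. Its difference was -10.8 points with an adjusted p of 9.08e-07 per the authors' deposited table. The window chr3:88215001-88216000 lies in the lncRNA gene Gm3764 and holds Mir9-1, a microRNA of neural progenitors, with Mir3093 and, on the other strand, Gm25641. Its difference was -12.5 points with an adjusted p of 0.000122 per the authors' deposited table. Mature strands from RefSeq (GRCm38.p6, which shares its coordinates with mm10) follow, 5′ to 3′ with the seed in capitals. The 3p strands of Mir132 and Mir212 carry the same seed.
mmu-miR-132-3p: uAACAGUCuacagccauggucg
mmu-miR-212-3p: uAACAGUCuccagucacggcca
mmu-miR-9-5p: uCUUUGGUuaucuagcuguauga
mmu-miR-9-3p: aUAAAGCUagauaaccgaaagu

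Promoters of noncoding genes are shown because windows over them were mostly lower in blood at week 8. That was 36 of 38 windows, beside 89.1% of all windows of that list. The 4 below come from genes of lists chosen for this work: Dleu2, host gene of a microRNA pair at a locus deleted in leukaemia, Snhg8 and Snhg17, host genes of small nucleolar RNAs, and Oip5os1, a conserved cytoplasmic lncRNA also called Cyrano. Each is a RefSeq stretch of 300 bases from 250 before to 50 after a start of the gene. It is written on the gene's own strand, 5′ to 3′, with every CG in capitals. Dleu2 has its promoter at chr14:61682324-61682623 on the minus strand, with 29 CG. Snhg8 has its promoter at chr3:123508287-123508586 on the minus strand, with 30 CG. Oip5os1 has its promoter at chr2:119594046-119594345 on the plus strand, with 15 CG. Snhg17 has the promoter printed here at chr2:158361460-158361759 on the minus strand, with 15 CG. This start lies inside the gene, and the outermost start of Snhg17 gives chr2:158361473-158361772, with 14 CG.
Dleu2: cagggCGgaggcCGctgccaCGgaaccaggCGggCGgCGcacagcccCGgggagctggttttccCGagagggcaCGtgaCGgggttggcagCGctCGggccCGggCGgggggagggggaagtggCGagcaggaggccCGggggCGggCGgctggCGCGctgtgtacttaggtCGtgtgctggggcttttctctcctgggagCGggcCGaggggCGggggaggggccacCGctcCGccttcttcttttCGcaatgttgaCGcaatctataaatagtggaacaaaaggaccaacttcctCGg
Snhg8: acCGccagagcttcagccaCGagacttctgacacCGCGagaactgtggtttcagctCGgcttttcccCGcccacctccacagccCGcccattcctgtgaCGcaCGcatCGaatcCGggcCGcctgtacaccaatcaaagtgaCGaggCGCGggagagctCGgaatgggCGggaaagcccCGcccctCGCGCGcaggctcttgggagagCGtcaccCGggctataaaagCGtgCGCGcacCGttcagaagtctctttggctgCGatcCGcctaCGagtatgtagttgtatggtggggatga
Oip5os1: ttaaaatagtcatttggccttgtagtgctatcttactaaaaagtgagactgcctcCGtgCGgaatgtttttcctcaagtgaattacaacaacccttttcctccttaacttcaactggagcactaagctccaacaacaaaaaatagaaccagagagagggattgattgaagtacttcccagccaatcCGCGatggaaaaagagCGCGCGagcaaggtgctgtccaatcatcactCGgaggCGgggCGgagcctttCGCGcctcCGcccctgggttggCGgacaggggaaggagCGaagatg
Snhg17: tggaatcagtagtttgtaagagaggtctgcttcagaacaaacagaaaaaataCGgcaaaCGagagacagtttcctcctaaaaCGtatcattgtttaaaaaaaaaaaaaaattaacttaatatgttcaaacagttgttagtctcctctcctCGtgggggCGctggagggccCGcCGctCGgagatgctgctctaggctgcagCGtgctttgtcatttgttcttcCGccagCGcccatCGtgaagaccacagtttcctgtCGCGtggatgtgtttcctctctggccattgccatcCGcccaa

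Across the 6 lists, 234 of the 624 windows were higher in App-NLGF mice and 390 were lower. They touched 610 of the 25855 noncoding genes on these chromosomes, or 2.36%. Of the windows, 572 lay in 1 noncoding gene and 52 in more than 1. A grid of 1 kb windows laid over the same chromosomes gives the background: 206448 of 2441517 grid windows met the same rule of position, or 8.46%. The share of these windows in each list lay between 6.17% and 10.6%, on either side of that background. The direction of the windows differed from list to list, and in each list it lay near the direction of all called windows of that list. Highest, lowest and smallest values in the following paragraphs are among the windows in noncoding genes only, not among whole lists.

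**Figure D1:**
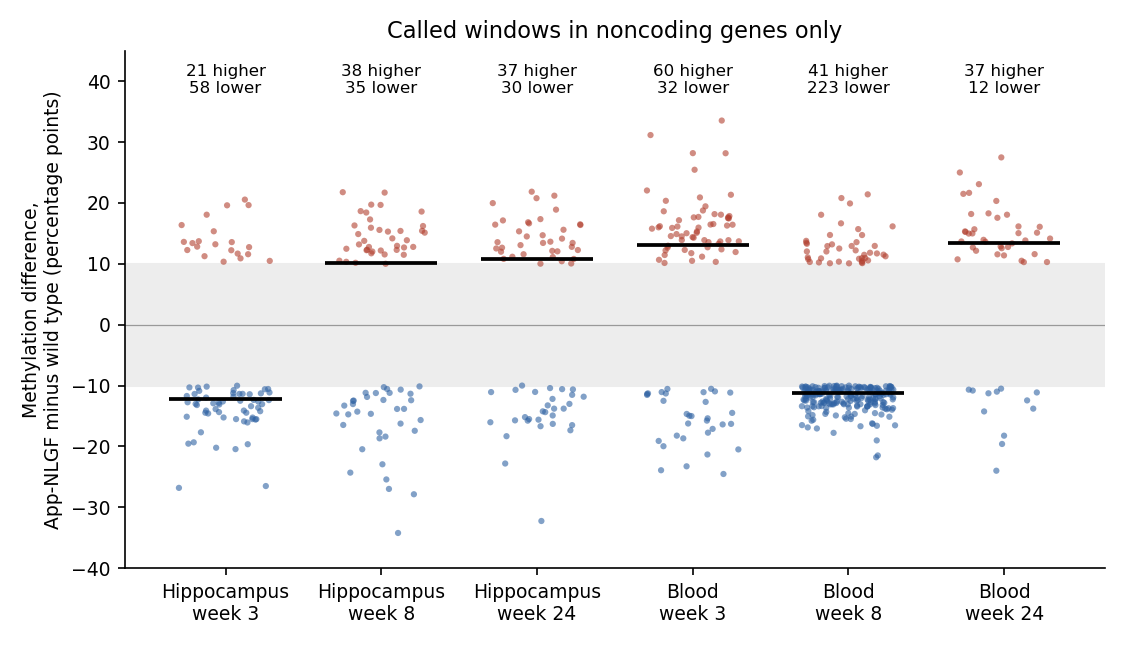
Each point is a called window in noncoding genes only, placed by its methylation difference (vertical axis, percentage points, App-NLGF minus wild type) in 1 of the 6 lists, and the black line is the median of the list. The grey band holds no point because the lists keep differences of at least 10 points. Blood at week 8 holds 223 lower and 41 higher windows, and blood at week 24 holds 12 lower and 37 higher.

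In hippocampus at week 3, 79 windows lay in noncoding genes only, 21 higher and 58 lower in App-NLGF mice. Over all chromosomes 0.044% of the windows tested were called in that list, 0.013% as higher and 0.0311% as lower. The 79 windows were 0.0383% of the grid windows of this kind, beside 0.0393% for all called windows on the same chromosomes and the full grid. Of them, 26.6% were higher, beside 29.2% of the 960 windows of the list, and the median absolute difference was 13.1 points beside 13.7. The lowest windows lay in the lncRNA gene Gm40289, at -26.8 points, and in the pseudogene Gm2431, at -26.5 points with an adjusted p of 0.00181, per the authors' deposited table. Gm5376 followed at -20.4 points per the authors' deposited table. The highest lay in Scgb2b9-ps, a secretoglobin pseudogene, at 20.5 points, and in D830013O20Rik and Gm42287, both at 19.6 points, per the authors' deposited table. Gm33765, at -11.8 points, had the smallest adjusted p of the 79, 0.00103, per the authors' deposited table.

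At week 8 in hippocampus the 73 windows were split nearly evenly, 38 higher and 35 lower. The background of called windows was 0.0318% of those tested, 0.0174% higher and 0.0145% lower, and the 73 windows were 0.0354% of their grid, beside 0.0282% for all windows on the full grid. Their share higher was 52.1%, beside 55.2% of the 689 windows of the list, with a median absolute difference of 13.9 points beside 13.3. Windows within 1 kb of a coding gene end in the same list were 90.3% higher, which is 28 of 31, and the difference between these kinds of window was not tested. The window of Gm42185, an lncRNA gene on chromosome 3, was the lowest of all 624 at -34.2 points per the authors' deposited table, with an adjusted p of 0.0776. LOC108167704 at -27.9 points and Gm33489 at -27.0 points came next per the authors' deposited table. On the higher side, Gm51421 stood at 21.8 points, Gm20756 at 21.7 and 2810404M03Rik at 19.7 per the authors' deposited table. Adjusted p-values were smallest for Gm39909 at 15.4 points (adjusted p = 0.00229) and Gm13715 at -18.4 points (adjusted p = 0.00258) per the authors' deposited table. The Gm13715 window also holds LOC115489623, a small nucleolar RNA gene.

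The 67 windows of hippocampus at week 24 comprised 37 higher and 30 lower. Called windows were 0.0408% of those tested in that comparison, 0.0239% higher and 0.0169% lower, and the 67 windows were 0.0325% of their grid, beside 0.036% on the full grid. Of the 67, 55.2% were higher beside 57.3% of the 880 windows of the list, and the median absolute difference was 13.8 points beside 13.9. The pseudogene Gm18026 had the lowest window at -32.2 points per the authors' deposited table, with an adjusted p of 0.098. Vmn2r-ps69, a pseudogene of a vomeronasal pheromone receptor, stood at -22.8 points and the lncRNA gene 6530403H02Rik at -18.3 points per the authors' deposited table. Gm8995 at 21.8 points, Gm40640 at 21.2 and Gm8816 at 20.8 had the highest windows per the authors' deposited table. AI115009 at -16.7 points (adjusted p = 0.00246) and AA619741 at 16.6 points (adjusted p = 0.0062) had the smallest adjusted p-values per the authors' deposited table. None of the 219 hippocampal windows at the 3 ages had an adjusted p under 0.001, beside 28 of 2529 hippocampal windows of all kinds, or 1.11%.

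Blood at week 3 gave 92 windows, 60 higher and 32 lower. In that comparison 0.0495% of the windows tested were called, 0.0313% as higher and 0.0182% as lower, and the 92 windows were 0.0446% of their grid, beside 0.0442% on the full grid. The share higher was 65.2% beside 63.4% of the 1078 windows of the list, and the median absolute difference was 15.6 points beside 14.7. A window in the overlapping lncRNA genes 4930412B13Rik and Gm13986 was the highest of all 624 at 33.5 points per the authors' deposited table, with an adjusted p of 0.0216. A830019P07Rik stood at 31.2 points and Gm33811 at 28.2 points per the authors' deposited table. Irx3os, a transcript opposite the homeobox gene Irx3, also stood at 28.2 points per the authors' deposited table, and was chosen for its name after its value was seen. The lowest windows lay in Gm2203 at -24.5 points, Gm35303 at -23.9 and Vmn2r-ps69 at -23.3 per the authors' deposited table. Nkx2-2os, opposite a homeobox gene of the oligodendrocyte lineage, had the smallest adjusted p of the 92 windows, 0.000332 at -14.7 points, per the authors' deposited table. Gm32828 followed at 17.7 points with an adjusted p of 0.00387 per the authors' deposited table.

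Blood at week 8 held the most windows of this kind, 264, of which 223 were lower in App-NLGF mice and 41 higher. In that comparison 0.196% of the windows tested were called, 0.0218% as higher and 0.175% as lower. The 264 windows were 0.128% of their grid, below the 0.175% of all windows on the full grid. Windows within 1 kb of a coding gene end were called in 1.72% of their grid, and they made up 1872 of the 4277 windows of the list. Outside those coding gene ends, the windows in noncoding genes were 11% of the called windows and 8.85% of the grid. The same share of called windows was 8.78%, 11.1% and 7.97% in hippocampus at weeks 3, 8 and 24. It was 9.04% in blood at week 3 and 10.2% in blood at week 24. The 264 windows of blood at week 8 were higher in 15.5% of cases. That stood beside 25.6% for windows in no gene, 12.5% for windows inside coding genes and 0.588% for windows at coding gene ends. The median absolute difference was 11.7 points, beside 11.6 for the list. Of the 264, 43 or 16.3% had an adjusted p under 0.001, beside 936 or 21.9% of the whole list. In the other 5 lists 1 of 360 windows did, that of Nkx2-2os in blood at week 3, beside 41 of 4104 windows of all kinds.

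**Figure D2:**
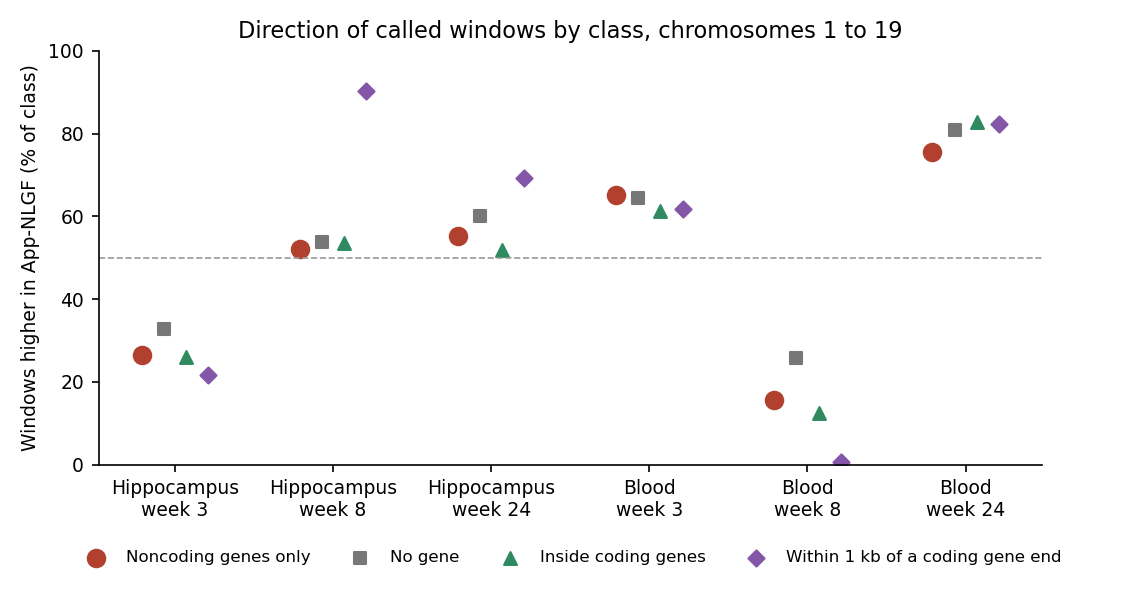
The vertical axis gives the percentage of called windows that were higher in App-NLGF mice, for each of the 6 lists and 4 kinds of window on chromosomes 1 to 19, and the dashed line marks 50%. Windows in noncoding genes only (red circles) stand at 26.6% in hippocampus at week 3 and at 75.5% in blood at week 24, near windows in no gene and inside coding genes, while windows at coding gene ends stand apart in hippocampus at week 8 and blood at week 8.

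The window at the start of Dleu2 had the smallest adjusted p of all 624, 4.44e-09 at -11.7 points, per the authors' deposited table. The window of Gm31242, which also holds the transfer RNA gene n-TQctg2, had an adjusted p of 4.46e-09 at -10.01 points per the authors' deposited table. The largest decreases among the 264 windows had larger adjusted p-values: Gm33384 stood at -21.8 points (adjusted p = 0.0938) and Vmn2r-ps47 at -21.5 points (adjusted p = 0.0752) per the authors' deposited table. Gm14061, at -19.02 points, had an adjusted p of 0.000359 per the authors' deposited table. Gm34516 at 21.4 points, 4930412E21Rik at 20.8 and D930007P13Rik at 19.9 were the highest of the 264 per the authors' deposited table.

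In blood at week 24 the split was the opposite, with 37 of 49 windows higher and 12 lower. In that comparison 0.0244% of the windows tested were called, 0.0202% as higher and 0.00426% as lower, and the 49 windows were 0.0237% of their grid, beside 0.0204% on the full grid. The share higher was 75.5% beside 80.9% of the 497 windows of the list, and the median absolute difference was 13.9 points beside 13.7. Whether the genotype difference changes with age was not tested, since the ages come as separate lists. Gm31456 stood at 27.5 points, 4930524B17Rik at 25 and Gm33893 at 23.1 per the authors' deposited table. On the lower side, Gm32647 stood at -24.0 points, Gm31107 at -19.6 and Gm42294 at -18.2 per the authors' deposited table. Gm31107 and Gm20754, the latter at 18.2 points, shared the smallest adjusted p of 0.00635 per the authors' deposited table.

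Windows over the promoters of noncoding genes were counted next, since the rule had removed the starts of coding genes and not those of noncoding ones. RefSeq promoters were at hand for 9291 of the 25855 noncoding genes. Of the grid windows of this kind, 7028 or 3.40% overlapped such a promoter, beside 55 of the 624 called windows or 8.81%. These 55 comprised 47 lower and 8 higher windows, beside 390 lower and 234 higher among all 624. Blood at week 8 supplied 38 of the 55, 14.4% of its 264 windows: 36 of its 223 lower windows and 2 of its 41 higher windows. Among its 43 windows with an adjusted p under 0.001, 13 overlapped a noncoding promoter. In hippocampus at week 3 the count was 6 of 79, all lower, as were 58 of the 79. Hippocampus at week 8 gave 3 of 73, hippocampus at week 24 gave 4 of 67, blood at week 3 gave 2 of 92 and blood at week 24 gave 2 of 49. These counts are a description of the lists and were not tested.

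**Figure D3:**
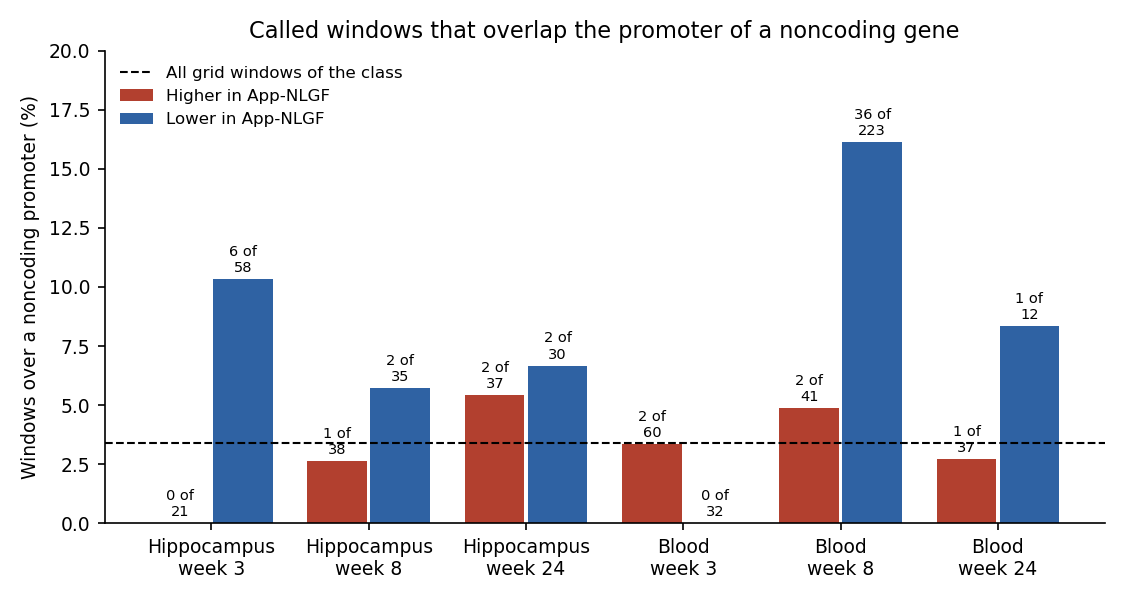
Bars give the percentage of called windows that overlap the 300-base promoter of a noncoding gene, separately for higher (red) and lower (blue) windows of each list, with the counts above the bars. The dashed line marks 3.40%, the share among all grid windows of this kind. The lower windows of blood at week 8 reach 16.1%, which is 36 of 223.

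Promoters that lay wholly inside a lower window of blood at week 8 were dense in CG. There were 25 of them, from 24 genes in 22 windows, with a median of 15 CG in 300 bases, and 18 held at least 10. Among all 4937 promoters that lie wholly inside grid windows of this kind, the median was 3 CG, and 430 or 8.71% held at least 10. The genes other than Snhg8, Oip5os1 and Snhg17 named here were chosen after their values were seen. The densest promoter was that of Gm38882, with 40 CG, whose window stood at -10.4 points with an adjusted p of 1.71e-05 per the authors' deposited table. Mirc35hg, host gene of a microRNA cluster, had 35 CG and a window at -13.8 points with an adjusted p of 0.000435 per the authors' deposited table. The window over the Snhg8 promoter printed above stood at -12.8 points with an adjusted p of 4.00e-05 per the authors' deposited table, and it also holds Snora24, the small nucleolar RNA gene that Snhg8 hosts. Oip5os1 stood at -10.03 points (adjusted p = 0.000293) and Snhg17 at -10.2 points (adjusted p = 0.0165) per the authors' deposited table. The promoter of Gm3764, the gene around Mir9-1, held 9 CG, and its window, which adjoins the Mir9-1 window, stood at -10.3 points per the authors' deposited table. In hippocampus at week 3, 5 promoters lay in lower windows, 3 of them from Zmiz1os1, an opposite-strand gene of Zmiz1, whose window stood at -12.4 points per the authors' deposited table. The 5 had a median of 10 CG but came from only 3 genes. The Zmiz1os1 promoters overlap each other and held 19, 20 and 10 CG, while Gm40632 had 1 CG and Gm40929 had 7. Gm42185, whose window was the lowest of all, had a promoter with no CG in that window.

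**Figure D4:**
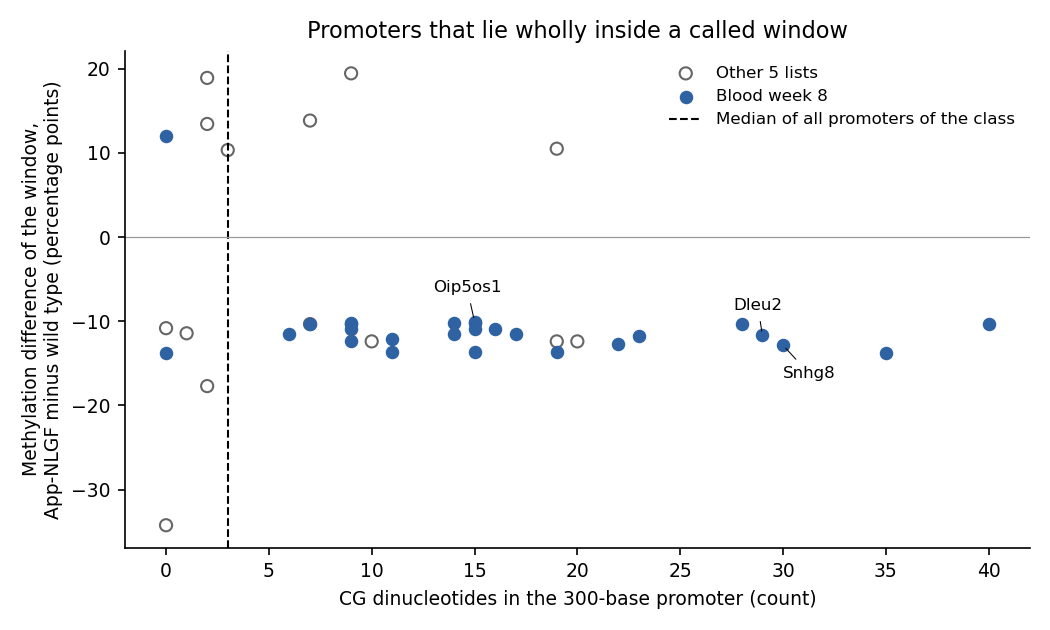
Each point is a RefSeq promoter of a noncoding gene that lies wholly inside a called window. The horizontal axis counts its CG dinucleotides in 300 bases, and the vertical axis gives the methylation difference of its window in percentage points. Points of blood at week 8 (filled) lie mostly to the right of the dashed line at 3 CG, the median of all such promoters, and all but 1 lie below 0.

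By class of gene, 534 windows lay in lncRNA genes (207 higher, 327 lower), 81 in pseudogenes (26 higher, 55 lower), 10 in genes of other, miscellaneous RNAs (4 higher, 6 lower) and 15 in small RNA genes (0 higher, 15 lower). A window in genes of several classes counts once in each. In blood at week 3 the classes pointed different ways: 57 of 79 lncRNA windows were higher, while 12 of 16 pseudogene windows were lower. In blood at week 24 all 6 pseudogene windows and 31 of 43 lncRNA windows were higher. At week 8 in blood, 186 of 222 lncRNA windows and 28 of 33 pseudogene windows were lower. In hippocampus, lncRNA windows were higher in 17 of 69 cases at week 3, 35 of 65 at week 8 and 31 of 56 at week 24. None of these differences between classes was tested. Reads from pseudogenes and other multi-copy genes can align to several copies, and how such reads were treated is not given in the sources used here.

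Of the 21 small RNA genes with a window, 6 were microRNA genes and 8 were transfer RNA genes. All but 1 of the 15 windows came from blood at week 8, where 14 of 14 were lower and 9 had an adjusted p under 0.001. In the same list 223 of the 264 windows, and 89.1% of windows of all kinds, were lower. An adjusted p under 0.001 was found for 43 of the 264 and for 21.9% of windows of all kinds. The window chr3:19628001-19629000 holds 4 transfer RNA genes, n-TRacg3, n-TYgta1, n-TYgta2 and n-TAagc14, and stood at -12.2 points per the authors' deposited table. Among other transfer RNA windows, that of n-TMcat16 stood at -11.8 points (adjusted p = 0.00114) per the authors' deposited table. Those of n-TStga2 (adjusted p = 0.0926) and n-TPcgg2 (adjusted p = 0.000864) both stood at -11.1 points per the authors' deposited table. Small nuclear RNA genes were represented by Gm23472 at -15.1 points (adjusted p = 0.0199) per the authors' deposited table. Gm25360 stood at -12.2 points (adjusted p = 1.49e-06) and Gm22614 at -11.4 (adjusted p = 3.95e-07) per the authors' deposited table. Mir7671, chosen after its value was seen, stood at -11.0 points with an adjusted p of 0.00014 per the authors' deposited table.

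Lists of noncoding genes with known roles were drawn up with earlier results of these data known. Every window of this kind in their genes in blood at week 8 was lower. Windows of these genes that lie in or near coding genes are not counted. Of 20 neural lncRNA genes in the RefSeq table, 11 held a window, beside 2.36% of all noncoding genes. Some of the 11 are long, such as Sox2ot at 118 kb and A330008L17Rik at 317 kb. The median of all noncoding genes was 2.08 kb, and a longer gene offers more windows to be called. Whether gene length accounts for the count was not tested. The 11 genes held 20 windows, 6 higher and 14 lower. The 10 of these in blood at week 8 were all lower, beside 223 of 264 for all windows of this kind in that list. Rmst, a partner of the stem cell factor SOX2 in neural differentiation, stood at -10.9 points in blood at week 8 per the authors' deposited table. Pantr1, a neighbour of the neural transcription factor gene Pou3f3, had windows at -11.5 and -10.1 points in blood at week 8 per the authors' deposited table. Sox1ot had windows at -10.9 and -11.3 points and Mir9-3hg at -10.1 points in blood at week 8 per the authors' deposited table.

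Some neural lncRNA genes had windows of both signs. Sox2ot, whose gene spans that of Sox2, had windows at 17.5 and -11.3 points in blood at week 3 and at -10.4 points (adjusted p = 4.36e-07) in blood at week 8 per the authors' deposited table. Otx2os1 stood at 12.02 points in hippocampus and -10.3 points in blood at week 8 per the authors' deposited table. Vax2os likewise stood at 13.9 points in hippocampus and -10.5 points in blood at week 8 per the authors' deposited table. A330008L17Rik had a window at -10.4 points in blood at week 8 and windows at 11.6 and 12.9 points in blood at week 24 per the authors' deposited table. The windows of 1 gene lay in different places, so these values do not follow 1 site across ages. Nkx2-2os was lower in both tissues, at -11.8 points in hippocampus at week 24 and at -14.7 points in blood at week 3 per the authors' deposited table. Single windows were those of 2610307P16Rik at -10.6 points in hippocampus at week 3 and of Mir99ahg at 12.8 points in blood at week 24 per the authors' deposited table.

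Of 17 snoRNA host genes, 3 held a window, all lower in blood at week 8: Snhg8 and Snhg17, given above, and Snhg15 at -11.0 points per the authors' deposited table. Among 18 widely expressed lncRNA genes, 4 held a window, and all 5 windows were lower. Lncpint, an lncRNA induced by p53, stood at -13.4 points in hippocampus at week 3 and at -11.0 points in blood at week 8 per the authors' deposited table. Mir17hg, host gene of a growth-promoting microRNA cluster, stood at -13.4 points in blood at week 8 per the authors' deposited table. Dleu2 and Oip5os1 were the other two. Of 19 brain microRNA genes, 3 held a window, namely Mir132, Mir212 and Mir9-1. None of the 9 imprinted noncoding genes, 11 Hox cluster noncoding genes or 11 blood and immune noncoding genes found in the RefSeq table held a window of this kind. Over all noncoding genes, 2.36% held one.

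Further genes were chosen after their values were seen. In the histocompatibility region of chromosome 17, the pseudogenes H2-K2 and H2-Q5 stood at -15.1 and -12.04 points (adjusted p = 6.7e-05 and 3.18e-07) in blood at week 8 per the authors' deposited table. H2-T10 in the same region stood at 16.1 points (adjusted p = 0.000637) for that list per the authors' deposited table. Foxl2os, opposite the ovarian factor gene Foxl2, stood at -14.7 points with an adjusted p of 2.87e-05 in blood at week 8 per the authors' deposited table. These histocompatibility genes have close relatives nearby, so the point on reads from multi-copy genes applies to them. Of the 610 genes, 541 have symbols that begin with Gm or LOC or end in Rik and so carry no name for a function.

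None of the 624 windows of this kind was called in more than 1 list. Of all kinds, 15 windows on chromosomes 1 to 19 were, in lists that hold 8381 windows there, so repeats were rare throughout. Genes recurred more often: 42 had windows in at least 2 lists, 31 of them in both tissues, 9 in blood only and 2 in hippocampus only. Of the 42, 6 had higher windows only, 11 had lower windows only and 25 had windows of both signs. These genes were long, with a median length of 115 kb, beside 23.5 kb for genes in a single list and 2.08 kb for all noncoding genes, and a longer gene offers more windows to be called. Tissues of 1 age may come from the same animals, which the labels do not state.

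Gm20754, an lncRNA gene of 528 kb on chromosome 3, had windows in 5 lists, and a neighbour inside it, 4930509J09Rik, shared 3 of them. Its windows stood at -19.3 and -16.1 points in hippocampus at week 3 and at -11.2 and -13.8 points in hippocampus at week 8 per the authors' deposited table. At week 24 it stood at 16.4 points in hippocampus and 18.2 points in blood, and at week 8 at 10.8 points in blood, per the authors' deposited table. Gm36503 was lower in blood at week 3, at -12.7 points, and higher at week 8, at 10.4 points, and week 24, at 20.3 and 21.5 points, per the authors' deposited table. Other genes kept 1 sign. Mir100hg, a microRNA host gene, stood at week 3 at -15.5 points in hippocampus and -20.5 points in blood per the authors' deposited table. Gm13986 was higher at 10.5 points in hippocampus at week 8 and, beside the 33.5 points given above, at 15.0 points in blood at week 3 per the authors' deposited table. Gm18728, a pseudogene, stood at -20.5 points in hippocampus and at -16.5 and -12.9 points in blood at week 8 per the authors' deposited table. Vmn2r-ps69, given above for hippocampus at week 24 and blood at week 3, was lower in both. 4930412E21Rik was higher in blood at weeks 3 and 8, at 15.9 and 20.8 points, per the authors' deposited table. Gm33811, Gm32647, Gm20756, Gm3164, Gm42287, Gm52178 and Gm30117 had windows of both signs.

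**Figure D5:**
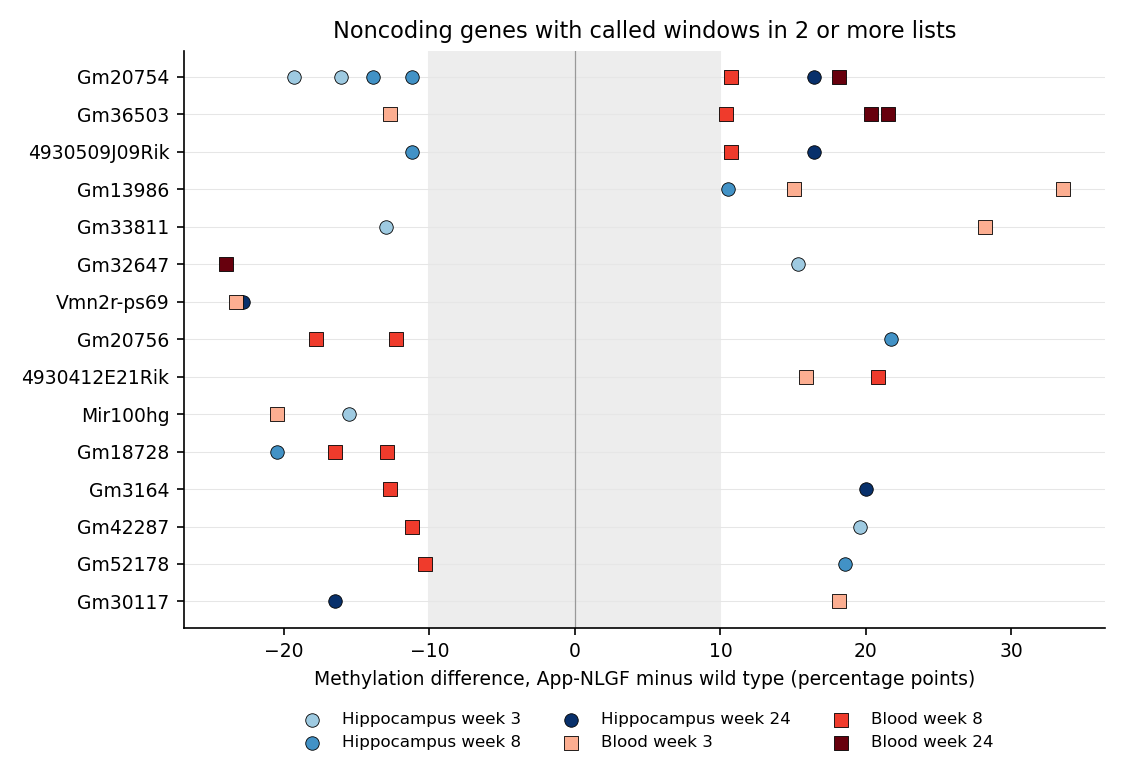
Rows are the 15 noncoding genes with windows in the most lists, then by largest difference, and each point is 1 called window placed by its methylation difference in percentage points (horizontal axis, App-NLGF minus wild type). Circles are hippocampus and squares are blood, darker with age. Gm20754 has its 4 lower windows in hippocampus at weeks 3 and 8 and its 3 higher windows in the other lists.

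There were 13 groups of windows of 1 list within 10 kb of each other, all in blood at week 8 and all lower, and the Gm3764 and Pantr1 windows are examples. The 13 groups took in 26 windows, 9.85% of the 264, while groups formed the same way from all windows of that list took in 13.1% of it. In the other 5 lists such groups took in between 0.402% and 0.682% of all windows. No gene held 3 or more windows in 1 list.

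The windows lay at a median of 47.5 kb from the nearest coding gene end, and 126 of 624 lay within 10 kb. The rule itself keeps windows away from coding genes, and the same distances over the grid were not computed. The lower windows had a median of 26.3 kb in blood at week 8, with 69 of 223 within 10 kb, 22.2 kb in blood at week 24 and 46.3 kb in blood at week 3, where 10 of 32 lay within 10 kb. The 41 higher windows of blood at week 8 had a median of 92.2 kb, with 7 within 10 kb. Higher windows of blood had medians of 82.6 kb at week 3 and 67.5 kb at week 24. In hippocampus the lower windows had medians of 84.6 kb at week 3, 86.3 kb at week 8 and 78.1 kb at week 24. Higher windows of hippocampus had medians of 129.98 kb at week 3 and 91.4 kb at week 24. At week 8 in hippocampus the order was the opposite, with the higher windows nearer, at 44.97 kb. These distances were not tested. Just inside the limit of 1 kb were windows of Gm15264 at 1069 bases and -12.8 points and of Gm10419 at 1084 bases and -12.9 points, both in blood at week 8, per the authors' deposited table. Gm40733 followed at 1134 bases and -13.8 points in blood at week 24 per the authors' deposited table. Just outside were Zfas1, a snoRNA host gene, at 986 bases and -10.7 points in blood at week 8, and Pla2g4c-ps at 960 bases and 13.0 points in hippocampus at week 3 per the authors' deposited table. By chromosome, the windows numbered from 20.9 (chromosome 19) to 36.5 (chromosome 11) per 10000 grid windows of this kind, and chromosome 16, which holds App, had 19 windows or 28.4 per 10000.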

How the data were processed

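Whole-genome bisulfite libraries of hippocampus and blood were grouped by tissue, genotype and week from their titles. Reads were handled with Trim Galore, FastQC and Bismark and methylation with methylKit on mm10, per the submitters' processing notes, without versions. The p-values and adjusted p-values are the authors' own, as deposited. The deposited methylation difference, a score in percentage points, is signed by the name of the comparison, and the table's tissue name brain was read as hippocampus. On the table itself, every adjusted p was under 0.1 and every absolute difference above 10 points. No source used here gives the test statistic, coverage filter or adjustment method. The number of windows tested was recovered from p divided by adjusted p, assuming the Benjamini-Hochberg method, and 86.5% to 93.0% of the ranks read came out whole within 0.02.

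Windows were placed on the RefSeq gene table of GRCm38.p6 (gene bodies, no exons) and its promoters with Python 3.11.15, numpy 2.4.6, pandas 2.3.3 and matplotlib 3.10.9. The grid ran from the first to the last gene of each chromosome, covered or not. The recovery of the number of windows tested was checked on simulated p-values. The placing of windows was checked at random positions on the real gene table, and the other steps were not checked in this way. No test was added. The members and lists were chosen with earlier results of these data known. Named genes are, per list, the 3 largest increases, 3 largest decreases and 2 smallest adjusted p, genes of 7 lists, the 15 small RNA genes with the largest differences, and up to 15 genes recurring across lists. Alternatives changed the thresholds, the distance to coding genes, the overlap, the classes, merging within 10 kb and chromosome 16, and 2 were added after seeing the data.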

Additional observations from a re-analysis of the deposited data

How the results depend on the processing

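No paired analysis was possible because the table used here holds no values per library, and for the same reason no single library could be left out. Of 121 values under alternatives, 102 were classed as the same, 18 as moved and 1 as turned. Some values classed as the same still differed by several points. The share higher in hippocampus at week 8 went from 52.1% to 61.1% (11 of 18) at an adjusted p under 0.05. In blood at week 24 it went from 75.5% to 85% (17 of 20) with differences of at least 15 points. The one that turned was the share of higher windows in hippocampus at week 24, which was 48.1% (13 of 27) at an adjusted p under 0.05. At an adjusted p under 0.05, the windows were also 6.12% of the list in hippocampus at week 3, and 10.7% of them were higher in blood at week 8. At an adjusted p under 0.01, the share of the list was 5.26% in hippocampus at week 3, 16.7% in hippocampus at week 8, 5.03% in blood at week 8 and 13.3% in blood at week 24. At that threshold, the share higher was 0% (0 of 3) in hippocampus at week 3, 75% (3 of 4) in hippocampus at week 8, 50% (4 of 8) in blood at week 3 and 5.43% (5 of 92) in blood at week 8. With differences of at least 15 points, the share of the list was 6.28% in hippocampus at week 3 and 5.38% in blood at week 8, where 25.9% (7 of 27) were higher. Beyond 10 kb from coding genes, the share of the list was 6.86% in blood at week 3 and 4.4% in blood at week 8. In blood at week 8 it was 5.4% with at least 500 bases of overlap, 5.19% with lncRNA genes only and, in an alternative chosen after seeing the data, 5.33% without windows over noncoding promoters. The rules on distance, overlap, lncRNA genes and promoters only take windows away from those counted. Under them the share of the list could therefore only fall, and the share of the grid under the same rules is not given here. The cause of the other shifts was not tested, and stricter rules leave fewer windows. Genes in 2 or more lists numbered 43 when windows within 5 kb counted. Depth is unknown, so differences that rest on few reads and on many cannot be told apart.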
